A study of Arabidopsis thaliana with 36 samples.

Results

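Of 32833 Arabidopsis gene identifiers counted in roots, 168 genes were low 15 min after seedlings were moved to fresh potassium nitrate. At 180 min they were back near their starting level or above it. They were chosen by a rule on the measured values. Counts were scaled to CPM (1000000 times the count of a gene over the total of its library), and for each gene the mean of log2(CPM + 1) over the 4 libraries at 0 min was subtracted from the mean over the 8 libraries of each later time. Genes with a mean of at least 2 CPM over all 36 libraries were kept where this difference was -0.6 or lower at 15 min and above -0.3 at 180 min. Of 17545 genes at or above 2 CPM, 346 met the limit at 15 min, and 174 of these were still at -0.3 or lower at 180 min. Of the 172 that had come back, 4 belonged to 10 genes left out by name: the type-A response regulators ARR4, ARR6, ARR7, ARR9, ARR15, RR3, RR5 and RR16, the auxin conjugation gene GH3.17 and the auxin receptor gene AFB2. The differences at 15 and 180 min chose the genes, so every value against 0 min below is a description without a test.

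The groups were roots of 7-day-old wild-type Col-0 seedlings grown on mesh over 1 mM KNO3, at 22 °C with 16 h of light and 8 h of dark. Starting 2 h after dawn, the mesh was moved to fresh plates of 10 mM or of 1 mM KNO3, and roots were frozen 15, 45, 90 and 180 min later. At 0 min the mesh was picked up and returned to the 1 mM plate it came from. Each of the 9 groups had 4 libraries, one from each of batches 1 to 4, with 2 plates per replicate. Moving plants, fresh medium and time of day changed together between 0 min and the later times, and potassium changed with nitrate between the concentrations, so these cannot be told apart. BrAD-seq, a method that makes libraries from the 3′ ends of polyadenylated RNA, gave 1376404 to 7512410 counted reads per library (median 5126926), of which 3881 to 36989 came from the 168 genes. Marker genes of root hairs, endodermis, xylem, phloem, root cap and root tip were all detected at every time, and 6 shoot markers together reached 8.65 to 29.1 CPM.

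Transcript levels follow the balance of synthesis and decay, and the level of a short-lived RNA can change within minutes. SAUR genes, which encode small proteins that act in auxin-driven cell expansion through inhibition of type 2C phosphatases, are a classic case of rapidly made and rapidly decayed plant transcripts. GUT15, a non-coding RNA gene, was named for its unstable transcript. Genes for transcription factors are also often turned over quickly in plants.

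The summed level of the 168 genes showed the course of the whole set. It lay at 4553, 4721, 4818 and 5140.2 CPM in the 4 libraries at 0 min. At 15 min the 8 libraries ranged from 2483 to 3071.9 CPM, all below the 0 min libraries. The rule used this contrast, as a mean difference for each gene. The 8 libraries of each later time ranged from 3901 to 4499 CPM at 45 min, from 4348 to 5015 CPM at 90 min and from 4627 to 5406 CPM at 180 min. In bulk roots, less RNA per cell and fewer cells of a type cannot be told apart. The summed level of 2 pericycle and stele markers had a median of 82.7 CPM (range 68.7 to 92.1) at 15 min and 96.7 CPM (range 88.6 to 107) at 0 min, both markers being detected, and that of 7 xylem markers had a median of 365 CPM (range 345 to 382) at 15 min and 402 CPM (range 361 to 413) at 0 min. At 45 min the pericycle and stele markers had a median of 72.3 CPM (range 50.9 to 78.9), and the xylem markers 373 CPM (range 305 to 412). The medians of root hair, endodermis, root cap and root tip markers were also lower at 15 than at 0 min. That of phloem markers was 109 CPM at 15 min and 106 CPM at 0 min. The part of these marker levels in the dip was not tested.

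**Figure D1:**
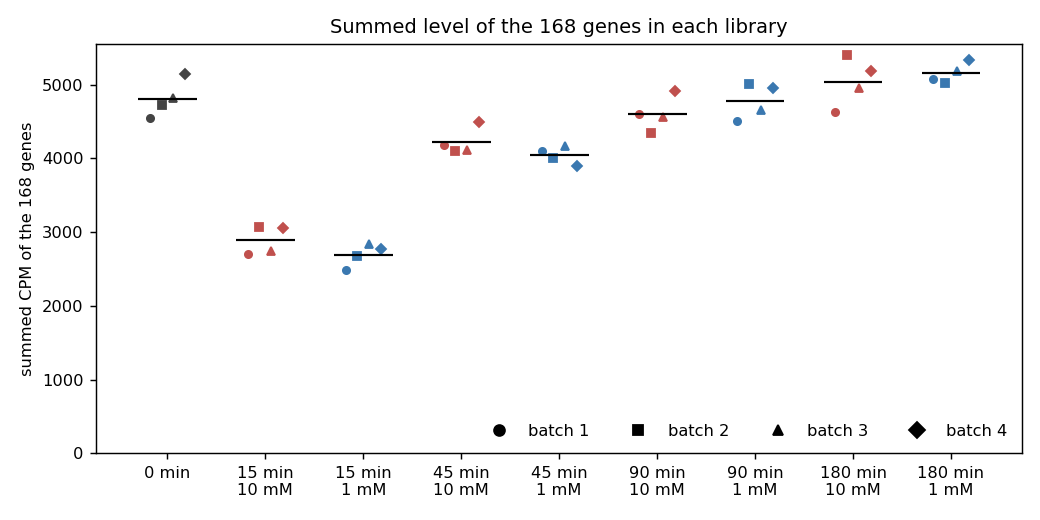
Summed CPM of the 168 genes (vertical axis, linear) in each of the 36 libraries, by time and KNO3 concentration; points are libraries, their shape the batch, and bars the group means. The 8 libraries at 15 min lie between 2483 and 3071.9 CPM, and the libraries of later times lie above them.

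The median difference from 0 min over the 168 genes was -0.71 at 15 min, -0.32 at 45 min, -0.16 at 90 min and -0.06 at 180 min on the log2(CPM + 1) scale. Over all 17545 genes the medians were -0.06, -0.08, -0.06 and -0.06. The 15 min difference was negative in each of the 4 batches for 158 of the 168 genes, and its median by batch was -0.85, -0.66, -0.73 and -0.74. For 70 genes all 8 libraries at 15 min lay below all 4 at 0 min. That was so for 2.14% of all genes, but the rule used this contrast and nothing is read from the counts.

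Recovery was uneven. At 45 min 79 of the 168 genes (47.0%) were already above -0.3, against 80.7% of all genes. A further 28 (16.7%, against 3.87% of all) were still at -0.6 or lower, and 15 (8.93%, against 53.7% of all) were lower than at 15 min. At 90 min 118 genes (70.2%, against 84.0% of all) were above -0.3. At 180 min 28 (16.7%, against 12.5% of all) had gone past +0.3, and the rule had removed genes at -0.3 or lower. The lowest value at 45 min was -2.39, of the MYB-related gene MYR1.

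**Figure D2:**
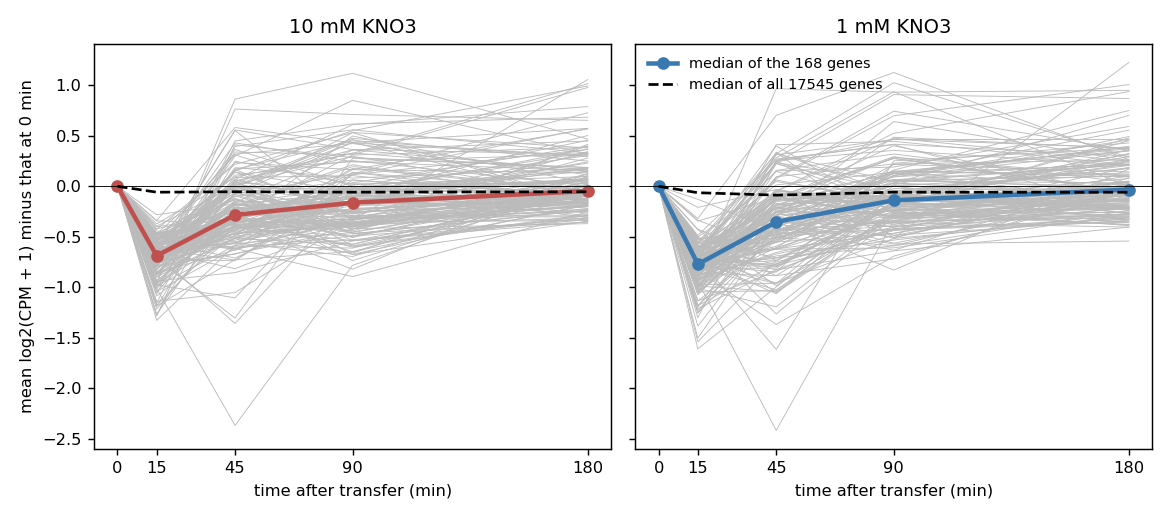
Mean log2(CPM + 1) minus that at 0 min (vertical axis) against minutes after transfer (horizontal axis) for each of the 168 genes (grey lines), with their median (thick line) and the median of all 17545 genes (dashed), at 10 mM (left) and 1 mM KNO3 (right). At 15 min the median lies at -0.69 at 10 mM and at -0.77 at 1 mM, and at 180 min at -0.05 and -0.03.

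Among the 12 lowest values at 15 min were those of tny (TINY, an AP2/ERF factor whose overproduction dwarfs plants), BNQ3 (a small helix-loop-helix protein that does not bind DNA), MYB45, MYB4 (a repressor of phenylpropanoid genes), ZFP6 and ZFP5 (C2H2 zinc finger factors of trichome and, for ZFP5, root hair formation), with differences of -1.42, -1.29, -1.27, -1.23, -1.14 and -1.10. The rest of the 12 were AT1G49470 at -1.40, the F-box gene AT2G36090 at -1.25, the acyltransferase gene AT3G50300 at -1.11, AT4G31330 at -1.09, the auxin synthesis gene YUC6 at -1.09 and AT5G02090 at -1.06. The gene models of MYB45 and AT2G36090 overlap more strongly read genes on the other strand (by 2 and 49 bases), and since the strand setting of the counting is not given, their counts are uncertain.

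The gene tny had 34.2, 29.3, 27 and 28.5 CPM in the 4 libraries at 0 min. It had 8.16 to 12.6 CPM (median 10.4) over the 8 libraries at 15 min, 17.2 to 27.1 (median 21) at 45 min, 23.6 to 35.2 (median 31.2) at 90 min and 21.1 to 34.2 (median 28.5) at 180 min. All 8 libraries at 15 min were below every other library. MYB4 had 117, 93.3, 104 and 136 CPM at 0 min, with ranges of 38.3 to 52.6 CPM (median 49.1) at 15 min, 81.4 to 134 (median 113) at 45 min, 84.3 to 113 (median 105) at 90 min and 88.8 to 114 (median 96.3) at 180 min. MYB4 was thus low at 15 min alone, and from 45 min its libraries overlapped those at 0 min.

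ZFP6 had 57.2, 73.7, 94.2 and 113 CPM at 0 min, against which its 8 libraries ranged from 27.5 to 47.8 CPM (median 37.8) at 15 min, 51.6 to 80.2 (median 67.5) at 45 min, 57.9 to 87.4 (median 74.4) at 90 min and 58.6 to 103 (median 87.7) at 180 min. ZFP5 had 25.1, 21.1, 26.6 and 34.1 CPM at 0 min and ranged from 6.47 to 17.7 CPM (median 13.2) at 15 min, 25.9 to 45.1 (median 36.5) at 45 min, 32.5 to 46.7 (median 36.7) at 90 min and 28.3 to 35.7 (median 32.2) at 180 min. The medians of ZFP5 at the 3 later times were all above its median at 0 min, and for ZFP6 that was so at 180 min alone.

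MYB59, a factor known to control potassium and nitrate transport from root to shoot, had a slower course. Its 4 libraries at 0 min had 283, 206, 244 and 292 CPM. It ranged from 120.2 to 199 CPM (median 156) at 15 min, 115 to 199 (median 163) at 45 min, 191 to 284 (median 229) at 90 min and 208 to 303 (median 271) at 180 min. Its ranges at 45 and 15 min nearly coincided, and its 90 min libraries overlapped those at 0 min. Of 68 measured genes named as MYB factors, 15 had a difference of -0.6 or lower at 15 min and 5 are among the 168 (MYB4, MYB45, MYB56, MYB59 and MYB68). MYB68 is a root pericycle factor and MYB56, also called BRAVO, restrains division in the root quiescent centre; their differences were -1.01 and -0.81 at 15 min, and -0.42 and -0.80 at 45 min.

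**Figure D3:**
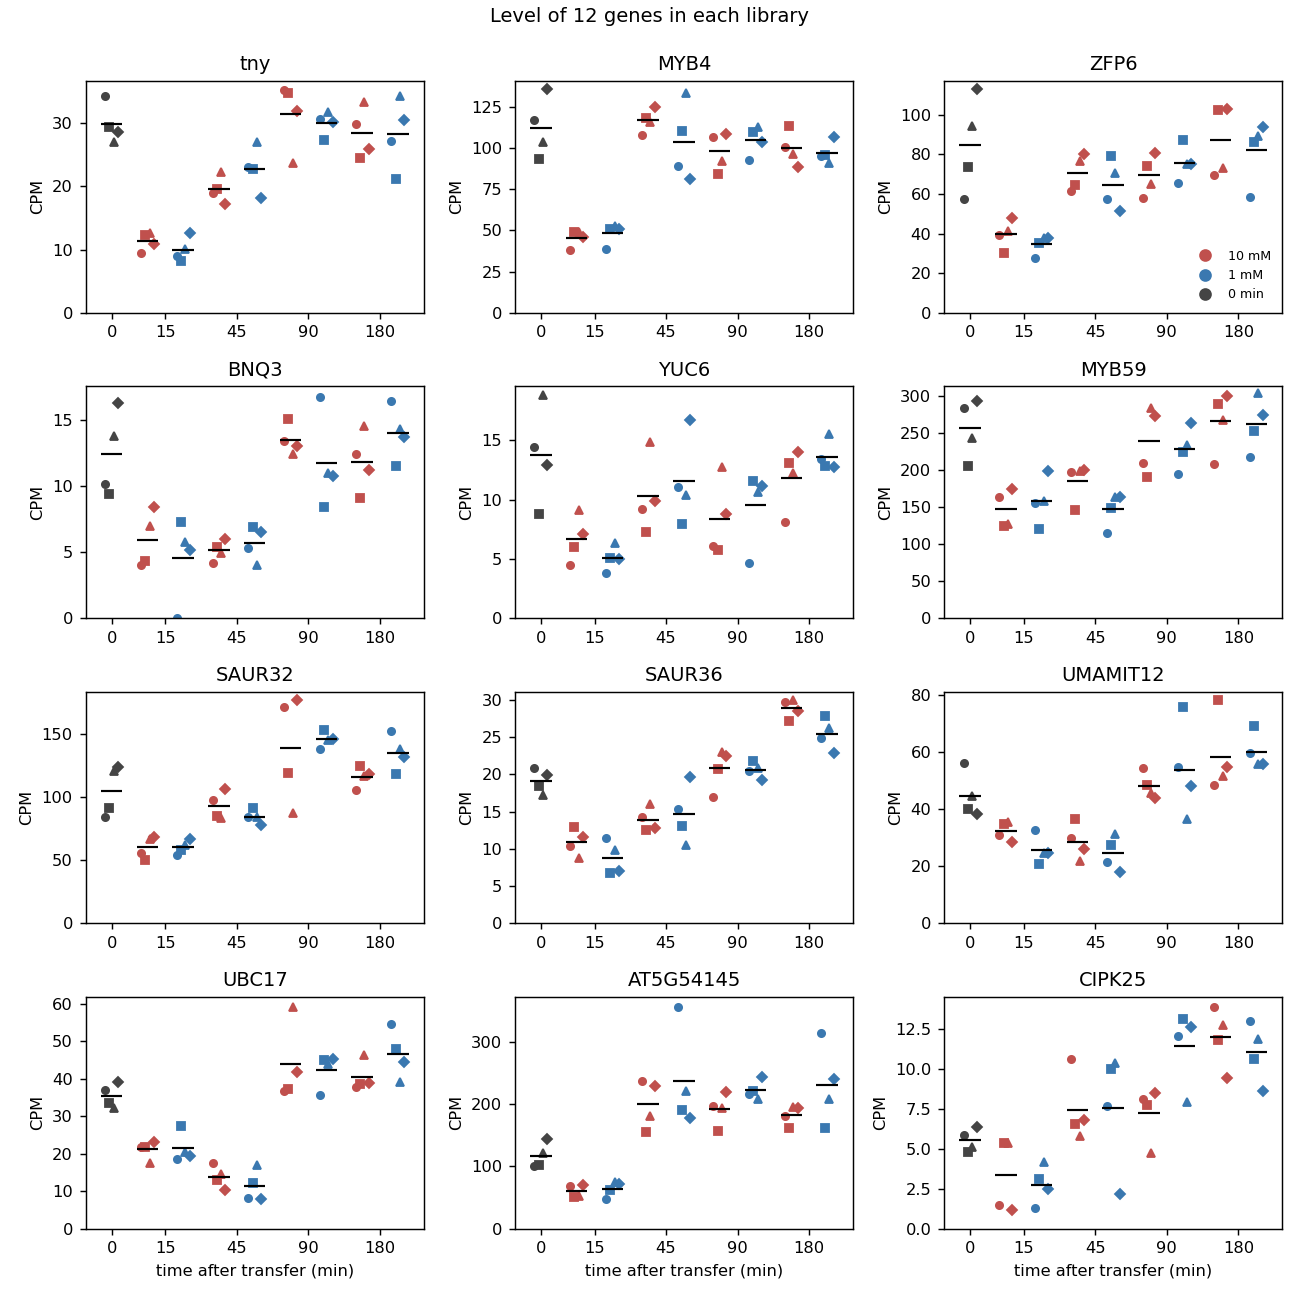
CPM of 12 genes (vertical axes, linear, from 0) in each library against time after transfer; red points are 10 mM, blue 1 mM and grey 0 min libraries, point shapes are batches and bars are group means. The 15 min libraries of tny and MYB4 lie below all others, the 45 min libraries of UBC17 lie below those at 0 and 90 min, and AT5G54145 lies above its 0 min level from 45 min on.

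Of 28 SAUR genes measured, 11 had a difference of -0.6 or lower at 15 min and 9 are among the 168: SAUR8, SAUR32, SAUR36, SAUR37, SAUR44, SAUR45, SAUR51, SAUR59 and SAUR69. That is 32.1% of the measured SAUR genes, and 0.958% of all measured genes are among the 168. The median over the 28 was -0.43 at 15 min, -0.15 at 45 min, -0.09 at 90 min and 0.05 at 180 min. The Aux/IAA repressors, which are also quickly induced by auxin, had 0 of 25 measured genes among the 168 and a median of -0.07 at 15 min. Of 25 auxin carriers and of 23 auxin receptors and ARF factors, 0 were among the 168. At a share of 0.958%, lists of these sizes would hold few or none, so nothing is read from the 0 counts. The limit of -0.6 at 15 min was met by 2 of the 25 auxin carriers, beside 346 of all 17545 genes. It was met by 0 of the Aux/IAA genes and 0 of the receptors and ARF factors. SAUR44 lies wholly within a gene of the opposite strand that was read at 182 CPM, so its 2.43 CPM cannot be assigned with certainty.

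SAUR32 was the most abundant of them, with 84.5, 91.5, 121 and 124 CPM at 0 min. It ranged from 50.2 to 68.9 CPM (median 60.4) at 15 min, 78.5 to 106 (median 84.8) at 45 min, 87.2 to 177 (median 146) at 90 min and 106 to 152 (median 122) at 180 min. SAUR36 had 20.8, 18.4, 17.2 and 19.98 CPM at 0 min, and ranged from 6.84 to 12.9 CPM (median 10.2) at 15 min, 10.6 to 19.6 (median 13.7) at 45 min, 17 to 23.1 (median 20.8) at 90 min and 22.9 to 29.9 (median 27.5) at 180 min. Its 180 min libraries all lay above those at 0 min. SAUR37, picked out after its values were seen, had 29.4, 27.2, 31.4 and 32.1 CPM at 0 min, with 13.4 to 20.9 CPM (median 16.7) at 15 min, then 19 to 35.1 (median 27.5), 17.4 to 32.5 (median 24.6) and 19.4 to 30.6 (median 26.4) at 45, 90 and 180 min.

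Other auxin genes among the 168 were YUC6 and YUC3, flavin monooxygenases that make auxin, and WES1 (GH3.5), which conjugates it to amino acids; YUC3 and WES1 were picked out after their values were seen. YUC6 had 14.4, 8.76, 18.8 and 12.9 CPM at 0 min and ranged from 3.84 to 9.09 CPM (median 5.54) at 15 min, 7.28 to 16.7 (median 10.1) at 45 min, 4.64 to 12.8 (median 9.73) at 90 min and 8.09 to 15.5 (median 13) at 180 min. Its 15 and 0 min libraries overlapped. YUC3 and WES1 had differences of -0.62 and -0.61 at 15 min. Of 7 measured GH3 genes, 2 had a difference of -0.6 or lower at 15 min: WES1 and GH3.17, one of the genes left out by name.

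The stretch just upstream of the annotated start is shown for 3 SAUR genes of the set and for UBC17, which had the smallest edgeR adjusted p between 90 and 45 min. The genes shown were picked after their values were seen. All 4 hold TATAAA, which begins 49, 52, 18 and 33 bases before the start in the order shown. Within 60 bases of the start, 22.6% of the 164 protein-coding genes of the set hold it, so the 4 are not typical. The 100 bases before each start are from the RefSeq assembly TAIR10.1, since the count files hold no coordinates. Capitals mark TATAAA, the core letters of the TATA box. Whether any of these matches acts as a TATA box was not tested.
SAUR32 (chr2:19180605-19180704, plus strand): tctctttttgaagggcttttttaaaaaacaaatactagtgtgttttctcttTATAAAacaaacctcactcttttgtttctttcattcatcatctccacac
SAUR37 (chr4:15194666-15194765, minus strand): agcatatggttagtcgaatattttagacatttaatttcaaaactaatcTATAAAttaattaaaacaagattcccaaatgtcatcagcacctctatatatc
SAUR59 (chr3:22434764-22434863, plus strand): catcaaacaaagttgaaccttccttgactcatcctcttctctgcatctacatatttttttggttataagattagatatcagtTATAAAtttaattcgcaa
UBC17 (chr4:17201822-17201921, plus strand): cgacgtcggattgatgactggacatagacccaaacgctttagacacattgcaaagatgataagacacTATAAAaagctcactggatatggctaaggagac

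In the 250 bases before the start, on either strand, TATAAA was present in 97 of the 164 protein-coding genes of the set (59.1%), and in 46.8% of all 17277 measured protein-coding genes. Within 60 bases of the start and on the gene's own strand it was present in 37 of 164 (22.6%), against 12.1% of all. The site II letters TGGGCC, found before many genes of growth and protein synthesis, were present in 7.32% of the 164 and in 16.8% of all. The auxin response letters TGTCTC were present in 9.15% of the 164, in 10.4% of all and in 0 of the 9 SAUR genes. A match is a description of letters and no evidence of a factor's binding, and 10 motifs were searched.

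The gene models of the set had few exons, a property the rule did not use. Of the 164 protein-coding genes, 64 (39.02%) had 1 exon, compared with 13.9% of all 17277; 18 (11.0%) had 6 or more, compared with 43.0%. The median was 2 exons in the set, and its median coding length was 850.5 bases, compared with 1113 bases over all. The share with 1 exon was 36.1% when the 9 SAUR genes were left out. It was 31.6%, 39.7% and 43.4% for genes of the set at 2 to 5, 5 to 20 and 20 or more CPM, compared with 21.2%, 14.3% and 11.4% of all genes of those levels. The property was shared with other genes that moved at 15 min: 31.4% of the genes that were low at both 15 and 180 min and 34.5% of those with a difference of 0.6 or higher at 15 min had 1 exon. The genes were spread over the 5 chromosomes, making up 0.914% to 1.05% of the measured genes on each.

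**Figure D4:**
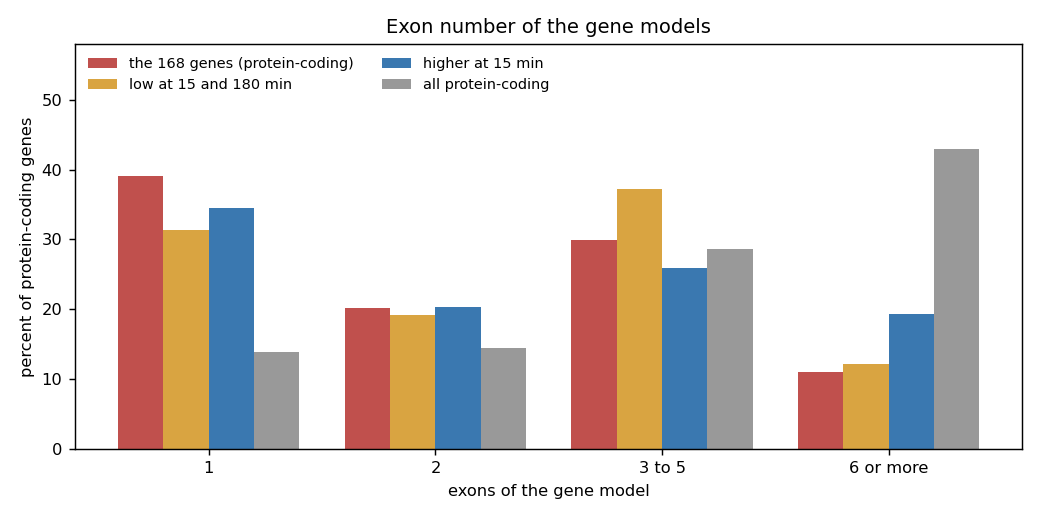
Percent of protein-coding genes (vertical axis) with 1, 2, 3 to 5, and 6 or more exons in the RefSeq gene models, for the set, for genes low at both 15 and 180 min, for genes with a difference of 0.6 or higher at 15 min, and for all measured genes. One-exon models make up 39.02%, 31.4% and 34.5% of the groups that moved at 15 min, compared with 13.9% of all.

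Most genes did not pass their 0 min level: at 180 min 71 of the 168 (42.3%, against 40.6% of all) had a difference above 0. The 6 highest differences at 180 min were 1.14 for AT1G47395, 1.00 for the TRAF-like gene AT5G26290, 0.98 for AT2G21560, 0.92 for CIPK25, 0.80 for AT5G54145 and 0.74 for the F-box gene AT2G16365. CIPK25, a kinase driven by calcium-sensing CBL proteins, had 5.88, 4.83, 5.14 and 6.38 CPM at 0 min. It ranged from 1.203 to 5.37 CPM (median 2.78) at 15 min, 2.18 to 10.6 (median 7.23) at 45 min, 4.72 to 13.2 (median 8.31) at 90 min and 8.62 to 13.9 (median 11.9) at 180 min. AT5G54145 had 100.5, 102, 121 and 144 CPM at 0 min, and ranged from 47.3 to 74.2 CPM (median 65.2) at 15 min, 154 to 356 (median 206) at 45 min, 157 to 243 (median 212) at 90 min and 161 to 314 (median 195) at 180 min. Its libraries lay wholly below the 0 min libraries at 15 min and wholly above them at all later times.

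Other lists are given here by their counts, beside the 0.958% of all measured genes that are among the 168. Of 74 measured genes of sugar and amino acid transport, 4 are among the 168: UMAMIT11, UMAMIT12 and UMAMIT29, of a family of amino acid exporters, and GDU4, a glutamine dumper that promotes amino acid export. Of 34 nitrate and ammonium transport genes, NRT1.9 alone is among them; it is a nitrate transporter of root phloem and was picked out after its values were seen. NRT1.9 had 129, 135, 109 and 105 CPM at 0 min, and ranged from 60.03 to 90.6 CPM (median 79.9) at 15 min, 68.2 to 95.2 (median 79.0) at 45 min, 76.2 to 106 (median 92.3) at 90 min and 97.8 to 139.6 (median 116) at 180 min. Also among the 168 were UGT72B3, UGT75B2 and UGT76C2, of 39 glycosyltransferases, of which UGT76C2 glucosylates cytokinins. Of 14 genes on the brassinosteroid list there were BR6OX2, which acts late in brassinosteroid synthesis, and PAR1. PAR1 is counted there only because the list holds it. Others were EXPB1 and EXPA14 (of 19 expansins, which loosen cell walls) and NAC3 and NAC6 (of 59 NAC factors, both known from leaf senescence). With BNQ3, bHLH39 and bHLH093 made 3 of 26 genes on the bHLH list. Of 56 WRKY factors 1 is among them, of 52 homeobox factors 1, and of 16 LBD factors, 31 TCP and GRF factors, 34 aquaporins and 25 XTH wall enzymes 0. In lists of these sizes, counts of 0 or 1 cannot be told from the 0.958% share, and nothing is read from them.

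Near the limits, the values changed little from one gene to the next. Just inside the 15 min limit were AT5G44410 at -0.6003, AT1G01448 at -0.601, GUT15 at -0.602 and AT1G54120 at -0.603, and just outside were AT1G12330 at -0.599, UGT84A4 at -0.598, AT5G16140 at -0.596 and AT1G21050 at -0.593. Just inside the 180 min limit were HB16 at -0.2997, AT5G17670 at -0.298, AT3G50300 at -0.296 and NIC2 at -0.281, and just outside were AT5G40270 at -0.304, AT5G10650 and AT5G53500 at -0.311 and AT3G06180 at -0.312. GUT15, the most abundant of the 168, had 266, 298, 312 and 332 CPM at 0 min, and ranged from 177 to 230.1 CPM (median 195) at 15 min, 244 to 288 (median 255) at 45 min, 254 to 345 (median 308) at 90 min and 288 to 406 (median 344) at 180 min.

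Whether the dip or the return depended on nitrate supply was tested between 10 and 1 mM KNO3, a difference the rule did not use. No gene of the 168 was called at any time in edgeR's quasi-likelihood test (adjusted p of 0.05 or less over 18768 genes), and DESeq2 called 0 as well. The count was also 0 with batch as a block in the fit, for which the share of all genes called is not given here. The shares, standard errors and intervals given for this difference are from the fit without the block. The coefficient of variation was 17.04% without the block and 12.1% with it. Of all genes, 0% were called at 15, 45, 90 and 180 min. For the mean of the 4 times 0 of the 168 and 0.016% of all genes (3 genes) were called, and for a difference at any time, or one that varied between times, 0 of the 168 and 0% of all. At an unadjusted p under 0.05, 10, 10, 10 and 4 of the 168 (5.95%, 5.95%, 5.95% and 2.38%) stood out at 15, 45, 90 and 180 min, against a background of 2.59%, 4.88%, 4.65% and 1.97%. For the mean of the times they were 11 (6.55%), against 4.81% of all, for any time 8, against 2.78% of all, and for a difference that varied between times 3, against 2.16% of all.

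The median log2 fold change of the 168 genes, 10 mM over 1 mM, was 0.11 at 15 min, 0.03 at 45 min, -0.04 at 90 min and -0.01 at 180 min. Over all genes tested it was 0.0013, -0.0064, 0.0018 and -0.0019, and at 15 min 111 of the 168 genes had a value above 0. A gene's typical standard error was 0.28 at 15 min, so that its 95% interval reached 0.54 to either side, and 0.13 for the mean of the times, reaching 0.25. In simulated counts for the comparison at 45 min, 22.4% of the 1.5-fold changes (67 genes), 76.1% of the 2-fold (67) and 95.5% of the 4-fold (66) were called. Most 1.5-fold changes and some larger ones could thus be missed. In the data at 45 min 0% of all genes were called, and with fewer changed genes the limit for a call is stricter. The simulated shares can therefore overstate what could be called here. SAUR59 had the smallest p of the 168 for the mean of the times, with a log2 fold change of 0.33 ± 0.09 (SE; 95% interval 0.16 to 0.51) and an edgeR adjusted p of 0.397. At 15 min it had 26.9, 38.9, 23.3 and 38.6 CPM in the 10 mM libraries, and 23.7, 19.2, 23 and 25.1 CPM in the 1 mM libraries, which overlap.

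Part of the return was tested between 90 and 45 min over both concentrations, and 79 of the 168 genes were already above -0.3 at 45 min. The libraries of these times entered the rule only through the limit of 2 CPM on the mean of all 36 libraries. By the rule, however, each gene rose between 15 and 180 min. An excess of higher over lower calls at this step is therefore partly built in, and nothing is read from it. Of the 168 genes, 21 (12.5%) were called by edgeR at an adjusted p of 0.05 or less, 19 higher and 2 lower at 90 min. Of all 18768 genes 6.12% were called, 2.82% higher and 3.3% lower. At an unadjusted p under 0.05 it was 44 of the 168 (26.2%), against 16.9% of all. With batch as a block in the fit, which the shared batch labels justify, 33 of the 168 were called, 30 of them higher and including all 21. The share of all genes called with the block is not given here, so the 33 have no background beside them. The median log2 fold change was 0.18 over the 168 and -0.0014 over all genes. The 19 genes called higher were higher at 90 min within each of the 4 batches, but the same libraries chose them. Of all 168, 111, 114, 114 and 118 were higher in batches 1 to 4, a direction partly built in by the rule. The share of all genes higher in each batch is not given here. The median change by batch was 0.16, 0.16, 0.16 and 0.24 over the 168, and 0.067, -0.026, 0.024 and -0.005 over all genes. Over the batches together, 123 of the 168 (73.2%) were higher at 90 than at 45 min on the log2(CPM + 1) scale, against 53.3% of all 17545 genes. Of the 174 genes that stayed low at 180 min, 2 were called higher and 10 lower. Of the 981 genes that had a difference of 0.6 or higher at 15 min, 38 were called higher and 280 lower. Both groups were also chosen by their differences from 0 min, so their counts follow in part from that choice. The count rested on several batches: 21 were called without batch 1, 14 without batch 2, 14 without batch 3 and 11 without batch 4. The shares of all genes called in these fits are not given here. Over the same step the summed level of 4 phloem markers had a median of 139 CPM (range 119 to 153) at 90 min and 107 CPM (range 94.7 to 143) at 45 min, and that of 6 endodermis markers 568 CPM (range 517 to 701) at 90 min and 491 CPM (range 410 to 585) at 45 min, with all of these markers detected. The medians of stele and root tip markers were also higher at 90 min. Root hair markers had a median of 388 CPM (range 294 to 432) at 90 min and 404 CPM (range 313 to 462) at 45 min. Root cap markers had 19.4 CPM (range 12.2 to 26.4) and 25.8 CPM (range 16.8 to 38.5), and xylem markers 370 and 373 CPM. The part of these marker levels in the change between 90 and 45 min was not tested.

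UBC17, a ubiquitin-conjugating enzyme, was the clearest case. It had 36.9, 33.5, 32.1 and 39.1 CPM at 0 min, 17.6 to 27.3 CPM (median 21.2) at 15 min, 7.99 to 17.6 (median 12.7) at 45 min, 35.7 to 59.2 (median 42.8) at 90 min and 37.9 to 54.7 (median 41.8) at 180 min. Its median was lower at 45 than at 15 min, and all 8 libraries at 90 min lay above all 8 at 45 min. Its log2 fold change, 90 over 45 min, was 1.73 ± 0.13 (SE; edgeR adjusted p = 2.17e-12), higher in 8 of 8 same-batch pairs.

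MYR1, of the MYB-related family, had the largest fold change among the called genes, on few reads. It had 10.2, 6.34, 4.99 and 7.22 CPM at 0 min, 1.40 to 7.68 CPM (median 3.01) at 15 min, 0 to 1.49 (median 0.509) at 45 min, 2.80 to 5.69 (median 4.58) at 90 min and 4.61 to 9.19 (median 6.95) at 180 min. Its log2 fold change was 2.65 ± 0.33 (edgeR adjusted p = 5.36e-07), higher in 8 of 8 pairs. A gene of the opposite strand, AT5G18245, overlaps MYR1 by 2518 bases and was read at 4.39 CPM, so the assignment of these reads is uncertain.

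UMAMIT12 had 56.1, 40.2, 44.6 and 38.3 CPM at 0 min, 20.9 to 35.6 CPM (median 29.7) at 15 min, 18.2 to 36.6 (median 26.9) at 45 min, 36.7 to 75.8 (median 48.4) at 90 min and 48.6 to 78.3 (median 56.0) at 180 min. BNQ3 had 10.2, 9.36, 13.8 and 16.3 CPM at 0 min, 0 to 8.42 CPM (median 5.42) at 15 min, 4.00 to 6.86 (median 5.35) at 45 min, 8.44 to 16.7 (median 12.7) at 90 min and 9.10 to 16.5 (median 13.1) at 180 min. Both genes had no overlap between their 90 and 45 min libraries, with log2 fold changes of 0.90 ± 0.13 (edgeR adjusted p = 7.14e-06) for UMAMIT12 and 1.19 ± 0.21 (edgeR adjusted p = 0.00013) for BNQ3. AT4G31330 had 19.2, 28.1, 35.2 and 27.7 CPM at 0 min, 8.96 to 17.2 CPM (median 11.7) at 15 min, 11.1 to 14.1 (median 12.6) at 45 min, 15.8 to 30.4 (median 23.6) at 90 min and 25.9 to 40.9 (median 32.4) at 180 min.

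Of the 12 genes with the smallest adjusted p, 7 were still at -0.6 or lower at 45 min relative to 0 min: UBC17, MYR1, UMAMIT12, AT4G31330, BNQ3, MYB59 and AT2G29320, a dehydrogenase-like gene. AT4G31330 had a log2 fold change of 0.89 ± 0.14 (edgeR adjusted p = 2.1e-05) and AT2G29320 of 1.43 ± 0.34 (edgeR adjusted p = 0.00503) on a mean of 3.33 CPM at 90 min and 1.13 CPM at 45 min. SAUR32 rose by 0.67 ± 0.11 on the log2 scale (edgeR adjusted p = 5.98e-05), SAUR36 by 0.58 ± 0.11 (0.000652), the TPR-like gene AT1G04770 by 0.50 ± 0.10 (0.000587), the zinc transporter gene ZIP5 by 0.60 ± 0.13 (0.00281) and tny by 0.51 ± 0.12 (0.00383). MYB59 rose by 0.49 ± 0.11 (edgeR adjusted p = 0.00258). AT1G47395 and AT1G68360, which codes for a zinc finger protein, were the 2 that fell at 90 min, by 1.02 ± 0.28 and 0.61 ± 0.18 (edgeR adjusted p = 0.0191 and 0.0362); AT1G68360 was picked out after its values were seen. The call of MYB59 was lost without batch 3 (edgeR adjusted p = 0.0525), and those of tny and AT2G29320 without batch 4 (0.0912 and 0.0812). The calls of AT1G47395 and AT1G68360 were lost in 6 and 11 of 20 fits that left out a library or batch, with edgeR adjusted p up to 0.328 and 0.411. AT1G47395 had 5.88, 9.06, 2.94 and 5.54 CPM at 0 min, 1.55 to 5.76 CPM (median 2.87) at 15 min, 4.64 to 11.6 (median 8.00) at 45 min, 2.26 to 9.32 (median 3.22) at 90 min and 9.32 to 16.8 (median 13.4) at 180 min. Its 90 min libraries overlapped those at 0 and at 45 min.

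**Figure D5:**
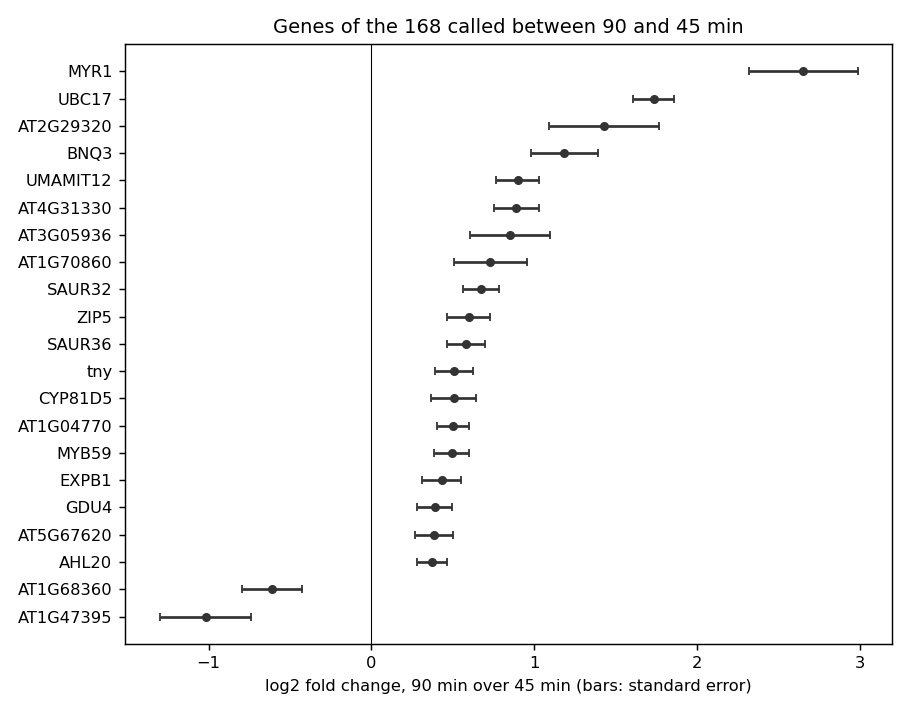
Log2 fold change, 90 over 45 min (horizontal axis; points, with standard errors as bars), of the 21 called genes of the 168. The values run from 2.65 for MYR1 to -1.02 for AT1G47395, and 19 lie above 0.

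By gene list, the change between 90 and 45 min was mixed. Of 28 SAUR genes 2 were called higher and 1 lower, of 68 MYB factors 2 higher and 6 lower, of 39 zinc finger and BBX factors 4 higher and 0 lower, of 26 bHLH factors 4 higher and 3 lower, and of 74 sugar and amino acid transport genes 13 higher and 3 lower. Beside the 6.12% of all genes called, these lists had 10.7%, 11.8%, 10.3%, 26.9% and 21.6%. Their median log2 fold changes were 0.01, -0.02, 0.13, 0.00 and 0.17.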

How the data were processed

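The 36 deposited files hold raw read counts per gene, 1 file a library; the authors' notes name FastQC, Bowtie2, SAMtools, HTSeq and TAIR10, per the submitters' processing notes, and library type and batches come from the labels. No source used here states versions or the strand setting of the counting. No line named anything but a gene, and 0 columns were left unassigned. CPM is 1000000 times the count over the library total. Genes and the gene lists were chosen with earlier results of these data known.

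Tests used edgeR 4.0.16 (R 4.3.3) on the counts: TMM scaling, filterByExpr (18768 genes, all 168 included), 1 coefficient per group over the 36 libraries, glmQLFit and glmQLFTest, two-sided, Benjamini-Hochberg adjusted over all genes. Biological variation between libraries came to a coefficient of 17.04%, or 12.1% once batch was a block. Replicates are numbered by batch in the labels, which pairs libraries across groups; same-numbered libraries had correlated deviations (r 0.0524 to 0.617 over 24 pairs, 20 over 0.1). Nothing says that the replicates came from separate seed lots, so p-values measure the spread between these libraries. Replicates of a group differed beyond counting error (chi-square per degree of freedom 2.62 to 11.6 over 54 pairs). Steps were tested on simulated data: for 90 against 45 min 47.8% of 1.5-fold and 91.0% of 2-fold changes were called among 18581 genes. Named genes were the 12 lowest at 15 min, the 6 highest at 180 min, called genes (at most 12 a comparison), 4 to each side of a limit and up to 4 per list. DESeq2 1.42.0, other scaling, filters, the block and left-out libraries were alternatives. Gene models and upstream sequences are RefSeq TAIR10.1.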

Additional observations from a re-analysis of the deposited data

Results flagged for a closer look

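Each group of 4 libraries was checked for a library far from the other three, for the summed level of the 168 genes and for the genes given by library, 207 groups in all. With chance at about 1 group in 20, 5 were found. MYB4 had 39.03 CPM in the 1 mM library of batch 1 at 15 min, the others lying between 50.7 and 52.6 CPM. YUC6 had 4.64 CPM in the 1 mM library of batch 1 at 90 min, the others 10.7 to 11.6 CPM. MYB59 had 146 CPM in the 10 mM library of batch 2 at 45 min, the others 198 to 199 CPM. UBC17 had 35.7 CPM in the 1 mM library of batch 1 at 90 min, the others 43.9 to 45.2 CPM. UBC17 also had 46.4 CPM in the 10 mM library of batch 3 at 180 min, the others 37.9 to 38.8 CPM.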

How the results depend on the processing

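The rule gave 153 genes with TMM library sizes (134 shared with the 168), 207 with a pseudocount of 0.5 (164 shared), 180 with a mean of at least 1 CPM and 128 with at least 5, 192 from the 10 mM libraries alone (111 shared) and 239 from the 1 mM libraries alone (128 shared). Leaving out a batch gave 169 to 208 genes, of which 107 to 132 were shared, so membership near the limits is not fixed. The median difference of the 168 genes was -0.26 at 45 min and -0.12 at 90 min with TMM library sizes; without batch 2 it was -0.20 at 90 min, and over the batches left out it ranged from -0.33 to -0.30 at 45 min and from -0.20 to -0.16 at 90 min; leaving out a 0 min library gave -0.32 to -0.29 and -0.177 to -0.152. Between 10 and 1 mM the count stayed at 0 of the 168 in the alternatives run, the block included. Between 90 and 45 min it was 33 with the replicate block, 23 with DESeq2 and 16 on the 16 libraries of these times. Leaving out 1 library or batch gave 11 to 22, the lowest without batch 4. The share of all genes called in each of these fits is not given here. Of the 21 called genes, 9 were called in all 20 such fits, and no direction reversed. Leaving out members that overlap a gene read at 50% of their level or more left 20. The cause of these shifts was not tested.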

Other observations

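Among genes at or above 2 CPM, 5 pairs of the 168 genes were next to each other on a chromosome: SAUR37 with AT4G31330 (divergent, 7622 bases apart), YUC6 with AT5G25630 (divergent, 8454 bases apart), SAUR59 with PDLP8 (same strand, 5717 bases apart), AT1G78110 with TPR12 (convergent, 478 bases apart) and AT5G14360 with AT5G14370 (convergent, 39 bases apart). SAUR37 and AT4G31330 had differences of -0.84 and -1.09 at 15 min, and -0.18 and -1.04 at 45 min, so these neighbours took different courses after the dip. YUC6 and AT5G25630 had -1.09 and -0.79 at 15 min, and -0.30 and -0.84 at 45 min. The gaps are from RefSeq TAIR10.1, and the pairs were picked after the values were seen.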
